A study of Homo sapiens with 12 samples.

Results

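TXNIP, the 4 arrestin domain-containing genes ARRDC1, ARRDC2, ARRDC3 and ARRDC4, and the transcription factor genes MLXIP and MLXIPL were followed through 12 RNA sequencing libraries of 2 ovarian cancer cell lines. These 7 genes were chosen by name out of 26475 gene symbols in the count table, with earlier results of the same libraries known. The study asked how gene expression changes when the chromatin protein ATAD2 is inhibited with BAY-850, a small molecule that keeps the ATAD2 bromodomain from binding acetylated histones. PA-1 cells, a teratocarcinoma line, and SK-OV-3 cells, an ovarian adenocarcinoma line, received 5 µM BAY-850 for 48 h or the solvent DMSO, with 3 biological replicates in each of the 4 groups. PA-1 was grown in DMEM and SK-OV-3 in RPMI, both with fetal bovine serum, so line and medium cannot be told apart. The paper lists catalog numbers of the media and does not state their glucose content. Each line is 1 established line, and the spread is that between biological replicates of it. In bulk libraries, fewer cells that use a gene and less RNA per cell cannot be told apart.

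TXNIP and the ARRDC proteins are the alpha-arrestins, which bind membrane receptors and transporters and bring NEDD4-family ubiquitin ligases to them, so that the cargo is taken in from the cell surface. TXNIP also binds and inhibits thioredoxin, and both TXNIP and ARRDC4 reduce glucose uptake. MLXIP encodes MondoA and MLXIPL encodes ChREBP, which sense glucose 6-phosphate and, paired with MLX, switch on TXNIP and ARRDC4 through carbohydrate response elements, which are built from E-box-like half-sites.

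The windows before the starts of TXNIP and ARRDC4, the usual shared targets of MondoA and ChREBP, are shown because these factors are known to act on both genes through E-box-like elements. Each line holds the 250 bases before the RefSeq start of the gene in GRCh38.p14, read 5′ to 3′ on the gene's strand. Capitals mark CACGTG, the spaced pair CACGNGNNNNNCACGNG and CCAAT, each searched on both strands, and the pair does not overlap the other motifs in either window.
TXNIP, chr1:145996580-145996829, reverse strand: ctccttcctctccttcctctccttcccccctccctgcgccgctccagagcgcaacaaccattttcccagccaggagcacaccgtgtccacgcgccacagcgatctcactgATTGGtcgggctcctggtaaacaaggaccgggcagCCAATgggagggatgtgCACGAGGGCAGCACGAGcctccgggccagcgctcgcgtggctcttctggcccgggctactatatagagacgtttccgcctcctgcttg
ARRDC4, chr15:97960453-97960702, forward strand: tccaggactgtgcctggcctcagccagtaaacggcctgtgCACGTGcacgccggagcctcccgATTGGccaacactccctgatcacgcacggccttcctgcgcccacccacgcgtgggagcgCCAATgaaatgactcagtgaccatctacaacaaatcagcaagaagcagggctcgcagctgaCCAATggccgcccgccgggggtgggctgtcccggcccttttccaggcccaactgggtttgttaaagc
The TXNIP window held 1 spaced pair, at bases -88 to -72 from the start, and 2 CCAAT matches, the letters bound by the factor NF-Y. The ARRDC4 window held 1 CACGTG, at -210 to -205, and 3 CCAAT matches. Among all 35116 promoter windows of this length, 0.0456% held the spaced pair, 6.34% held CACGTG and 32% held CCAAT on either strand. The windows of ARRDC1, ARRDC2, ARRDC3, MLXIP and MLXIPL, and a second TXNIP window, held neither the spaced pair nor CACGTG. The letters CCAAT were absent from the MLXIPL window and the second TXNIP window. The ARRDC1 and MLXIP windows each held 1 match to CCAAT, and so did 1 of the 2 windows of ARRDC2 and of ARRDC3. These matches are descriptions of letters, and binding was not measured.

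Library totals ran from 34544481 to 51840249 counts. PA-1 libraries carried LIN28A at 705 to 860 CPM (counts scaled to library size) and SOX2 at 215 to 254, and SK-OV-3 libraries carried KRT7 at 375 to 476 and PAX8 at 215 to 332. KRT7 did not pass 0.17 CPM in PA-1 and LIN28A did not pass 0.332 CPM in SK-OV-3, while KRT8 and KRT18 were high in both lines. Of the markers of other cells, the leukocyte genes PTPRC and CD3E and the stromal gene DCN did not pass 10 counts in any library, and LUM and VWF did not pass 6.75 and 4.37 CPM. The collagen gene COL1A1 was at 425 to 613 CPM in PA-1 and 82.1 to 172 in SK-OV-3, the endothelial gene PECAM1 at 22.9 to 26.2 in PA-1 and 2.51 to 3.75 in SK-OV-3, and the macrophage gene CD68 at 2.35 to 2.93 in PA-1 and 28.4 to 39.9 in SK-OV-3. The part of other cells in the results was not tested. The third SK-OV-3 BAY-850 library stood apart, with the highest total and the fewest genes with a count, 15629 against 17425 to 18414 in the others, and the responses of the members in SK-OV-3 are also given without it. CPM values here are also scaled by TMM, which sets libraries to a common level.

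The main difference of the family was between the lines, and it was carried by TXNIP. TXNIP lies on chromosome 1 at 145992435 to 145996600 on the reverse strand (hg38, GENCODE v29). In PA-1 its counts were 2, 27 and 4 under DMSO and 5, 8 and 12 with BAY-850. In SK-OV-3 they were 9992, 9740 and 10491 under DMSO and 20740, 21264 and 24021 with BAY-850. All 6 PA-1 libraries were at 27 counts or fewer, and all 6 SK-OV-3 libraries were at 9740 counts or more. Summed over the 3 libraries, PA-1 DMSO held TXNIP at 0.284 CPM without TMM scaling (95% exact Poisson interval 0.195 to 0.399, counting error only) and PA-1 BAY-850 held 0.203 (0.132 to 0.3). The intervals of the PA-1 groups overlapped, and no difference after BAY-850 was detectable at this depth. The second PA-1 DMSO library gave 27 of the 33 TXNIP counts of its group, and in that library KRT7, an SK-OV-3 marker, had 1 count and PAX8 had 9. Whether those 27 counts came from PA-1 cells was not tested.

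In SK-OV-3, TXNIP stood at 251, 258 and 272 CPM under DMSO and at 510, 504 and 447 CPM with BAY-850. The 3 treated libraries were all above the 3 controls, and the lowest of them was the third. The log2 fold change was 0.92 (standard error 0.0542), a 1.89-fold higher level, and it was 0.96 without the third BAY-850 library. The members were chosen with these responses known, so their changes are given with errors and without p-values.

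**Figure D1:**
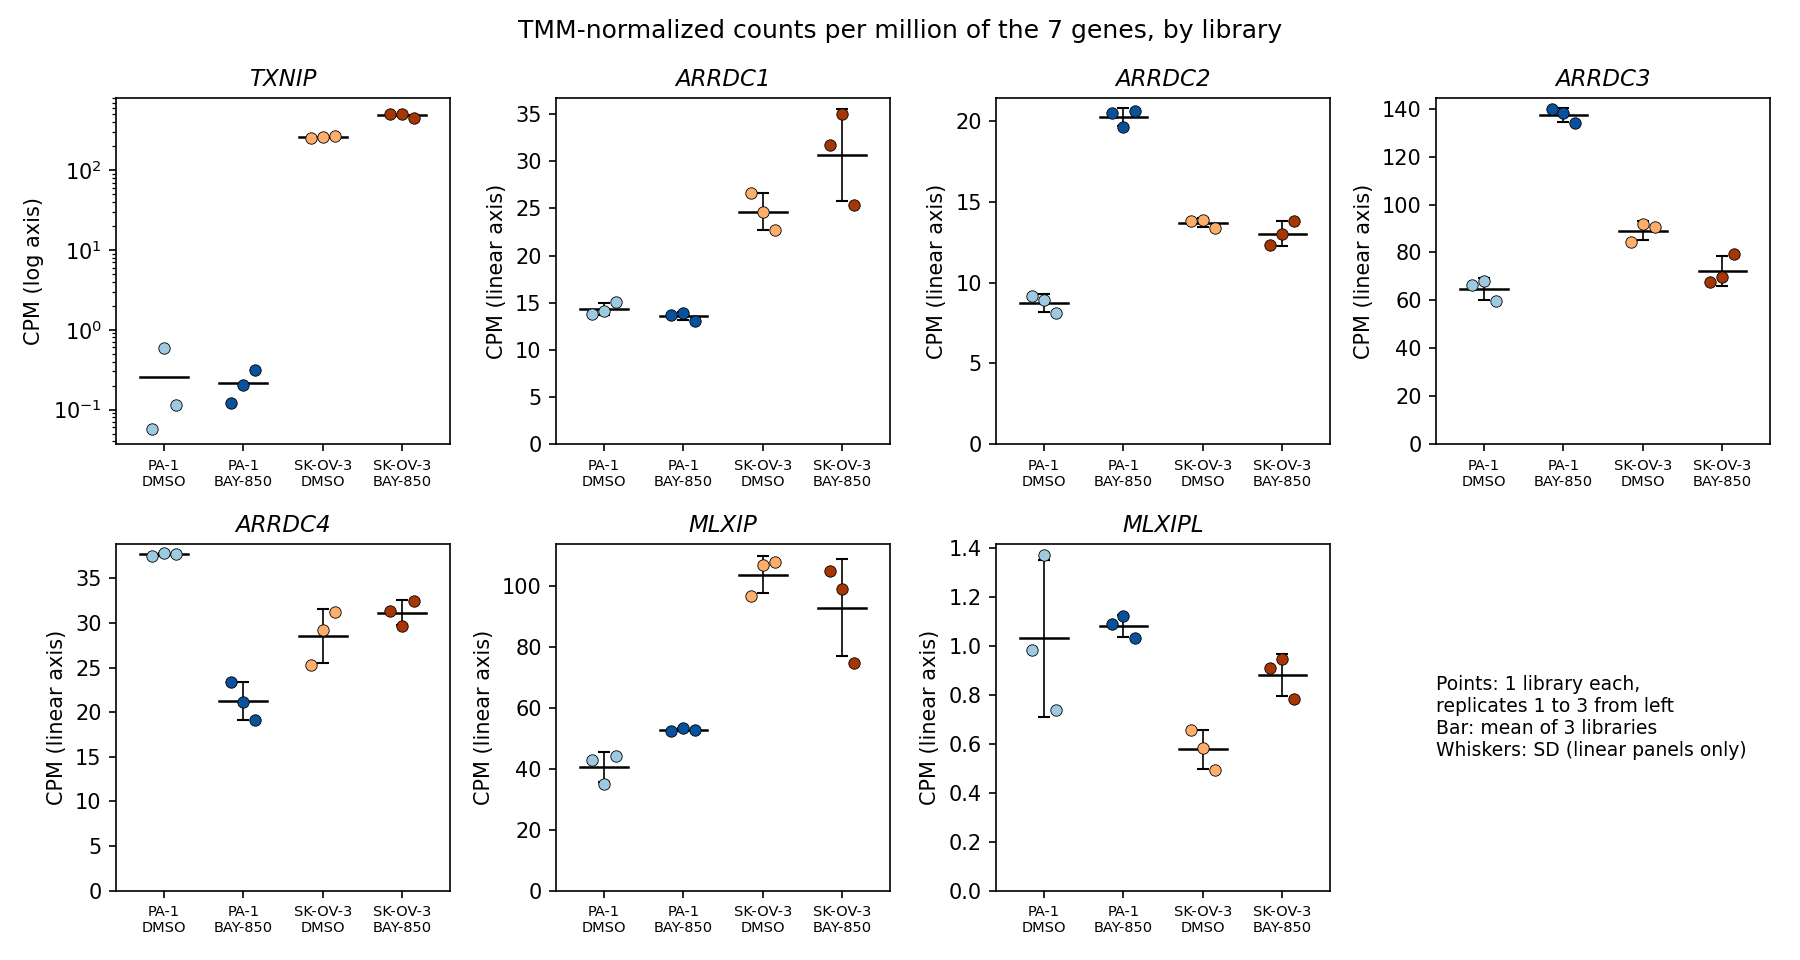
TMM-normalized CPM of the 7 genes in each of the 12 libraries (points), by cell line and treatment, with the mean of 3 libraries (bars) and the SD (whiskers) on linear axes. TXNIP is on a log axis, where PA-1 libraries lie at 0.0578 to 0.599 CPM and SK-OV-3 libraries at 251 to 510 CPM.

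ARRDC3, an alpha-arrestin known for sending integrin beta-4 to degradation, was the member whose libraries moved in opposite directions in the lines. In PA-1 it stood at 66.5, 68.2 and 59.6 CPM under DMSO and at 140, 138 and 134 CPM with BAY-850. In SK-OV-3 it stood at 84.5, 91.8 and 90.7 CPM under DMSO and at 67.8, 69.9 and 79.5 CPM with BAY-850. Treated PA-1 libraries were all above their controls and treated SK-OV-3 libraries were all below theirs. The log2 fold change was 1.09 (standard error 0.0626) in PA-1, a 2.12-fold higher level. It was -0.28 (standard error 0.077) in SK-OV-3 and -0.37 without the third BAY-850 library. The response in SK-OV-3 was thus 1.38 lower than in PA-1 on the log2 scale (-1.38, standard error 0.0975), a difference given with no test.

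ARRDC2, a less studied member of the family, was at 9.17, 8.91 and 8.12 CPM in PA-1 under DMSO and at 20.5, 19.6 and 20.6 CPM with BAY-850. In SK-OV-3 it was at 13.8, 13.9 and 13.4 CPM under DMSO and at 12.3, 13 and 13.8 CPM with BAY-850. The PA-1 groups were apart and the SK-OV-3 groups overlapped. The log2 fold change was 1.22 (standard error 0.0983) in PA-1, the highest of the members there, and -0.06 (standard error 0.109) in SK-OV-3, or -0.12 without the third BAY-850 library.

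ARRDC4, the closest functional partner of TXNIP in restraining glucose uptake, was lower in treated PA-1 libraries. In PA-1 it was at 37.5, 37.9 and 37.7 CPM under DMSO and at 23.4, 21.2 and 19.1 CPM with BAY-850. In SK-OV-3 it was at 25.3, 29.2 and 31.2 CPM under DMSO and at 31.3, 29.7 and 32.5 CPM with BAY-850. All treated PA-1 libraries were below their controls, and the SK-OV-3 groups overlapped. The log2 fold change was -0.83 (standard error 0.0793) in PA-1, where ARRDC2 and ARRDC3 were higher, and 0.14 (standard error 0.0937) in SK-OV-3, or 0.09 without the third BAY-850 library.

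ARRDC1, which recruits TSG101 and drives budding of vesicles from the cell surface, was at 13.8, 14.1 and 15.1 CPM in PA-1 under DMSO and at 13.7, 13.9 and 13.1 CPM with BAY-850. In SK-OV-3 it was at 26.6, 24.6 and 22.7 CPM under DMSO and at 31.7, 35 and 25.4 CPM with BAY-850. The groups overlapped in both lines. The log2 fold change was -0.07 (standard error 0.0966) in PA-1 and 0.33 (standard error 0.113) in SK-OV-3. Only the third treated SK-OV-3 library lay within the control range, and without it the value was 0.44.

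MLXIP, the MondoA gene, was at 43, 35.1 and 44.1 CPM in PA-1 under DMSO and at 52.5, 53.4 and 52.9 CPM with BAY-850. In SK-OV-3 it was at 96.8, 107 and 108 CPM under DMSO and at 105, 99.2 and 74.8 CPM with BAY-850. The treated PA-1 libraries were above the controls, with a log2 fold change of 0.38 (standard error 0.0803), which was 0.28 without the low second control library. The SK-OV-3 groups overlapped, with a log2 fold change of -0.15 (standard error 0.101) that was -0.02 without the third BAY-850 library.

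MLXIPL, the ChREBP gene, which is best known in liver and fat, did not pass 1.37 CPM in any library. Its counts were 34, 62 and 26 in PA-1 under DMSO and 45, 44 and 39 with BAY-850. They were 26, 22 and 19 in SK-OV-3 under DMSO and 37, 40 and 42 with BAY-850. The PA-1 groups overlapped, with a log2 fold change of 0.06 (standard error 0.359). The treated SK-OV-3 libraries were above the controls, but the log2 fold change of 0.62 had a standard error of 0.522, and it was 0.68 without the third BAY-850 library.

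In PA-1, 6 of the 7 members passed the filter on low counts, and TXNIP did not. Treated libraries lay wholly above the controls for 3 of the 6 (ARRDC2, ARRDC3 and MLXIP), a pattern that 14.1% of the 15212 genes tested showed, and wholly below for 1 (ARRDC4), against 13.3%. In SK-OV-3 all 7 passed. Treated libraries lay wholly above for 2 (TXNIP and MLXIPL), against 18.1% of the 15348 genes tested, and wholly below for 1 (ARRDC3), against 20.5%. The members were chosen with these contrasts known, so nothing is read from the counts. The comparisons within a line share no library with each other.

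**Figure D2:**
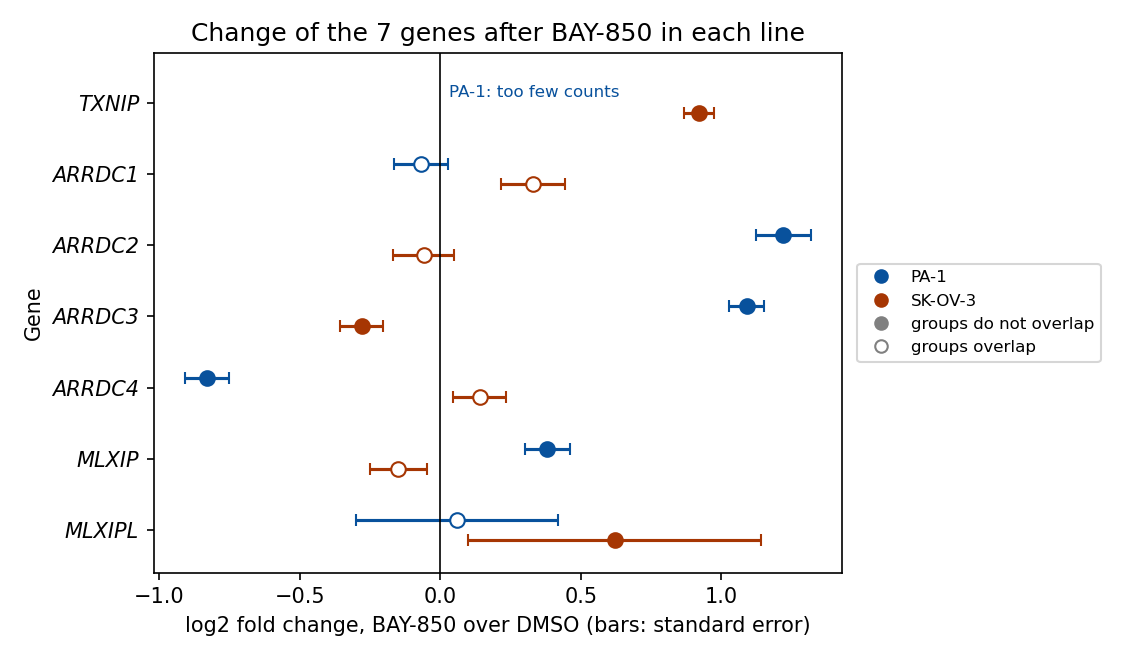
Log2 fold change after BAY-850 (horizontal axis) of the 7 genes in PA-1 (blue) and SK-OV-3 (brown), with standard errors from the fit over all genes. Filled points mark genes whose 3 treated and 3 control libraries do not overlap; ARRDC3 lies at 1.09 in PA-1 and -0.28 in SK-OV-3.

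Under DMSO the libraries of the lines did not overlap for 7 of the 7 members, but this held for 82.3% of all genes tested, so the count says little about the family. The level was higher in SK-OV-3 for 5 members, as it was for 41.1% of the 16070 genes tested, and lower for 2, against 41.2%. The log2 difference of SK-OV-3 over PA-1 was 9.81 (standard error 0.216) for TXNIP, and it was 11.5 without the second PA-1 DMSO library. It was 1.35 (0.0863) for MLXIP, 0.78 (0.0947) for ARRDC1, 0.65 (0.116) for ARRDC2 and 0.45 (0.0667) for ARRDC3, with standard errors in parentheses. ARRDC4 and MLXIPL were lower in SK-OV-3, by -0.40 (0.0838) and -0.85 (0.417). TXNIP thus lay far outside the range of the other members, but the size of its gap is known only roughly. Its standard error does not take in the shift to 11.5, and the SD of its log2 CPM within the groups was 0.962. The same DMSO libraries are the controls of the BAY-850 comparisons.

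The order of the 4 groups differed from member to member. TXNIP was highest in SK-OV-3 with BAY-850, then SK-OV-3 with DMSO, and the PA-1 groups overlapped each other. ARRDC2 and ARRDC3 were both highest in PA-1 with BAY-850, at 20.3 ± 0.539 and 137 ± 2.91 CPM (SD, n = 3), and both lowest in PA-1 with DMSO, where ARRDC3 overlapped the treated SK-OV-3 libraries. ARRDC4 was highest in PA-1 with DMSO, at 37.7 ± 0.184 CPM, and lowest in PA-1 with BAY-850, at 21.2 ± 2.15 CPM, and the SK-OV-3 groups lay between them and overlapped each other. For ARRDC2, ARRDC3 and ARRDC4, the treated and the control PA-1 libraries thus lay on opposite sides of all 3 SK-OV-3 control libraries.

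Levels of different genes were compared per kilobase of exon. In PA-1 under DMSO, ARRDC3 made up 46.7% ± 1.78 of the summed per-kilobase level of the 5 alpha-arrestin genes and ARRDC4 33% ± 1.07 (SD, n = 3). With BAY-850, ARRDC3 made up 67.9% ± 0.525 and ARRDC4 12.7% ± 0.933. ARRDC2 went from 6.7% ± 0.26 to 10.7% ± 0.445, so that it came close to ARRDC4. In SK-OV-3, TXNIP alone made up 67.6% ± 0.697 under DMSO and 80.1% ± 1.44 with BAY-850, and ARRDC3 was next, at 17% ± 0.462 and 8.8% ± 1.27. The sum of the 5 genes was 28.1 ± 0.942 CPM per kilobase in PA-1 with DMSO and 41 ± 1.15 with BAY-850. It was 106 ± 3.63 in SK-OV-3 with DMSO and 168 ± 9.03 with BAY-850. The sum was higher in each treated library than in each control of the same line, led by ARRDC3 in PA-1 and by TXNIP in SK-OV-3.

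**Figure D3:**
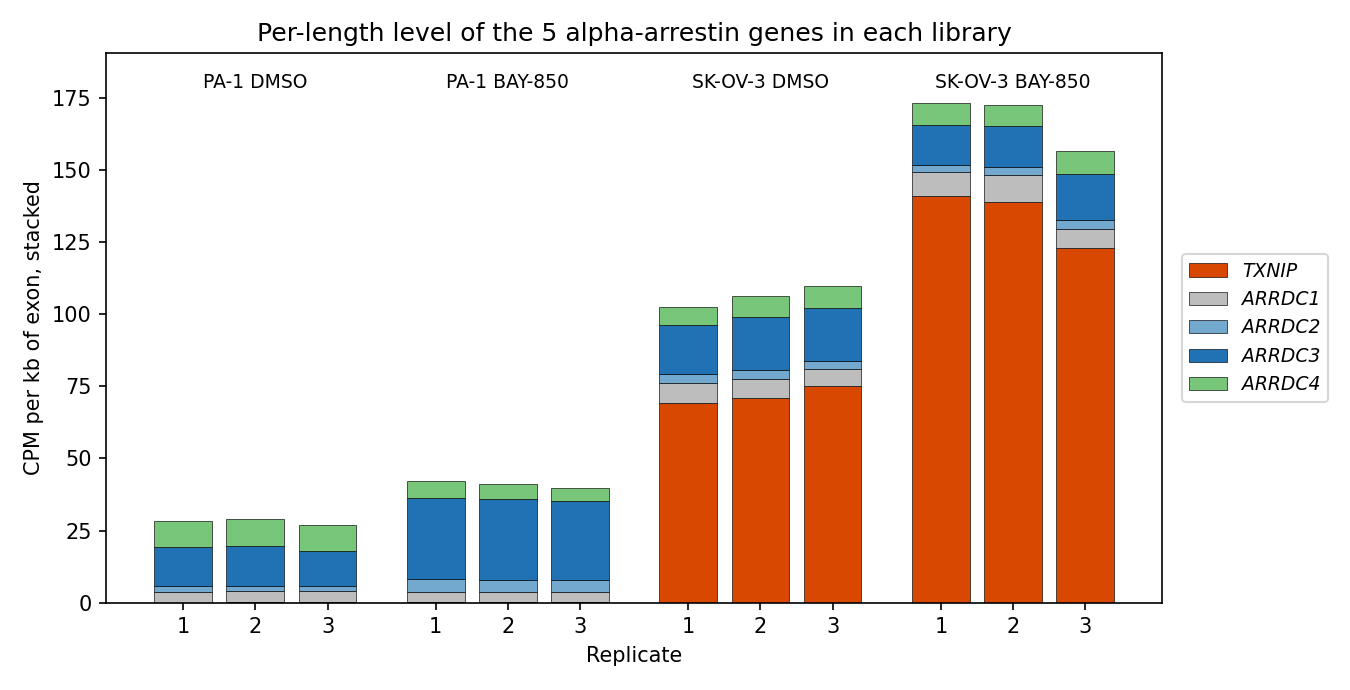
Stacked level of the 5 alpha-arrestin genes in CPM per kilobase of exon (vertical axis) in each of the 12 libraries. TXNIP takes up most of each SK-OV-3 bar and cannot be seen in the PA-1 bars, where ARRDC3 and ARRDC4 are the largest parts under DMSO.

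Ratios of counts within a library need no scaling between libraries. There were 9.92, 8.81 and 8.71 TXNIP counts for each ARRDC4 count in SK-OV-3 with DMSO and 16.3, 17 and 13.8 with BAY-850. The ratio of ARRDC3 to ARRDC4 counts was 1.77, 1.8 and 1.58 in PA-1 with DMSO and 5.98, 6.53 and 7.04 with BAY-850. In SK-OV-3 that ratio was 3.34, 3.14 and 2.9 with DMSO and 2.17, 2.35 and 2.45 with BAY-850. The treated libraries did not overlap the controls in any of these 3 comparisons. The ratio of ARRDC2 to ARRDC4 counts was also apart in PA-1, at 0.244, 0.235 and 0.216 with DMSO and 0.879, 0.928 and 1.08 with BAY-850. In SK-OV-3 it overlapped, at 0.546, 0.475 and 0.431 with DMSO and 0.393, 0.44 and 0.426 with BAY-850. The ratio of TXNIP to ARRDC4 counts overlapped in PA-1. All 84 values of the members were whole numbers, whereas 8.94% to 12.4% of each library's values over all genes were not. RSEM writes fractions where it divides reads between similar genes. ARRDC1, ARRDC2 and ARRDC3 share 29, 442 and 145 exon bases with genes on the opposite strand. ARRDC1 also shares 183 exon bases with a gene on the same strand. The paper describes strand-specific libraries, but whether the counting used strand was not given in the sources used here.

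The genes most like a member over the 12 libraries were taken by Pearson's r of log2 CPM among 13063 genes. For TXNIP they were PHF11, PTPRR and MGLL, with r of 0.998, 0.998 and 0.997, and they shared with TXNIP the gap between the lines. MGLL, which encodes monoglyceride lipase, stood at 0.988 ± 0.296 CPM in PA-1 with DMSO and 284 ± 5.95 in SK-OV-3 with DMSO (SD, n = 3). For ARRDC3 they were ISCA1, PGM2 and EGLN1, with r of 0.954, 0.9 and 0.892. EGLN1, an oxygen-sensing prolyl hydroxylase, stood at 82.2 ± 2.06 CPM in PA-1 with DMSO and 161 ± 4.62 with BAY-850, and at 85.5 ± 4.16 and 94.6 ± 1.31 in SK-OV-3. For ARRDC4 they were NFYB, a subunit of the CCAAT-binding factor NF-Y, ZNF146 and CUL3, with r of 0.907, 0.876 and 0.871. The libraries fall into 4 groups, so these values describe likeness over groups and carry no p-value. A link of NFYB to the CCAAT matches was not tested.

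The genes around the family were taken as 7 lists with 74 genes, tested in the fit of all genes by the edgeR quasi-likelihood method, with p-values adjusted after Benjamini and Hochberg. In PA-1, 65 passed the filter, 10 rose and 1 fell, beside 4.65% of all genes tested that rose and 2.48% that fell. In SK-OV-3, 62 passed, 18 rose and 8 fell, beside 10.8% and 9.56%. The lists were chosen with earlier results of these data known, so nothing is read from these counts. For the same reason the p-values of list genes are not independent evidence. The median log2 fold change of the list genes was 0.04 in PA-1 and 0.05 in SK-OV-3, and that of all genes tested was -0.00 and -0.01. Over all genes in PA-1, 707 rose and 378 fell, but with scaling by library size alone 235 rose and 231 fell.

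HK2 and SLC2A1 had the highest log2 fold changes of the list genes called in PA-1. Of the cargo and partner list, 3 of 9 tested genes rose in PA-1 and none fell. SLC2A1, the glucose transporter GLUT1 that TXNIP and ARRDC4 help to remove from the surface, rose from 604 ± 21.3 to 1470 ± 33.5 CPM (SD, n = 3, log2 fold change 1.29, edgeR adjusted p = 3.71e-10). SLC2A3, the transporter GLUT3, rose by 0.77 and NOTCH1, a receptor that alpha-arrestins help to sort, by 0.59 (edgeR adjusted p = 4.56e-08 and 0.000194). In SK-OV-3 SLC2A1 stood at 325 ± 2.3 CPM with DMSO and 336 ± 12.7 with BAY-850 (edgeR adjusted p = 0.38), and SLC2A3 did not pass 1.28 CPM. There, 2 of 10 tested cargo genes rose and 2 fell. INSR, the insulin receptor, rose by 0.50, the metal transporter gene SLC11A2 rose by 0.27, and ITGB4, the integrin linked to ARRDC3, fell by 0.48 (edgeR adjusted p = 0.0109 for INSR, 0.0426 for SLC11A2 and 8.73e-05 for ITGB4). The median of the list was 0.13 in PA-1 and 0.18 in SK-OV-3.

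Of the enzymes that make or use glucose 6-phosphate, the sugar that MondoA senses, 4 of 7 tested genes rose in PA-1 with a median log2 fold change of 0.46. HK2, an inducible hexokinase, rose from 120 ± 1.31 to 351 ± 28.1 CPM (SD, n = 3, log2 fold change 1.55, edgeR adjusted p = 5.62e-10). GPI rose by 0.69 and HK1 by 0.46 (edgeR adjusted p = 3.38e-06 and 0.000114). In SK-OV-3, 4 of 6 rose and 1 fell, with a median of 0.20. HKDC1, a hexokinase-like gene, rose by 0.82 and HK2 rose by 0.35 (edgeR adjusted p = 1.46e-05 and 0.0019). HK1 rose by 0.17 there (edgeR adjusted p = 0.0316), a call lost in 6 of 14 alternatives.

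Most of the known targets of the Mondo factors other than the members did not pass the test in either line. Over all genes tested, 4.65% rose in PA-1 and 10.8% in SK-OV-3, and nothing is read from the list counts. In PA-1, 2 of 10 tested genes rose, FASN by 0.44 and SCD by 0.37, both enzymes of fatty acid synthesis (edgeR adjusted p = 0.000932 and 0.000747). In SK-OV-3, 3 of 8 rose and none fell. SCD rose from 65 ± 3.31 to 170 ± 6.58 CPM (SD, n = 3, log2 fold change 1.40, edgeR adjusted p = 8.98e-08), LPIN1 by 0.53 and ELOVL6 by 0.46, the last a call lost in 5 of 14 alternatives (edgeR adjusted p = 0.00296 for LPIN1 and 0.0255 for ELOVL6). The median of the list was 0.07 in PA-1 and 0.24 in SK-OV-3.

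The list of the MLX network held MLX, which pairs with MLXIP, and genes of the wider MAX and MYC network. MLX stood at 41.3 ± 2.06 and 41.6 ± 3.27 CPM in PA-1 with DMSO and BAY-850. In SK-OV-3 it stood at 72.1 ± 0.741 and 67.2 ± 1.91 (SD, n = 3). It did not pass the test in either line (edgeR adjusted p = 0.938 and 0.337). MXI1, a repressor that pairs with MAX against MYC, was the only gene of its list of 11 to rise in PA-1, by 0.69 (edgeR adjusted p = 2.22e-06). In SK-OV-3, 3 of 10 tested rose, MNT by 0.45, MXI1 by 0.32 and MAX by 0.25, the last a call lost in 4 of 14 alternatives (edgeR adjusted p = 0.00632 for MNT, 0.00404 for MXI1 and 0.0208 for MAX). The median of the list was 0.07 in PA-1 and 0.09 in SK-OV-3.

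None of the 12 thioredoxin system genes passed the edgeR test in PA-1 (2 had an unadjusted p under 0.05, and DESeq2 called 0). There, TXN, the thioredoxin that TXNIP binds, had a log2 fold change of -0.14 (edgeR adjusted p = 0.331). In SK-OV-3, 2 rose and 4 fell. TXNRD2, the mitochondrial thioredoxin reductase, fell by 0.56 and PRDX1, a peroxidase recharged by thioredoxin, fell by 0.33 (edgeR adjusted p = 0.00121 and 0.000635). PRDX5 rose by 0.42 (0.00276). TXNRD1 rose by 0.18 (edgeR adjusted p = 0.0267), a call lost in 4 of 14 alternatives. TXN did not pass there (log2 fold change -0.12, edgeR adjusted p = 0.326). The median of the list was -0.05 in PA-1 and -0.11 in SK-OV-3.

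Among the NEDD4-family ligases and their adaptors, which alpha-arrestins bring to their cargo, 1 of 11 fell in PA-1, WWP1 by 0.24 (edgeR adjusted p = 0.0478), a call lost in 9 of 14 alternatives. In SK-OV-3, NEDD4L rose by 0.50 and ITCH by 0.27 (edgeR adjusted p = 5.17e-05 and 0.0145). HECW1, at 2.39 ± 0.253 CPM with DMSO, fell by 1.24 (edgeR adjusted p = 0.029), a call lost in 6 of 14 alternatives. The median was -0.03 in PA-1 and -0.07 in SK-OV-3. NEDD4 did not pass in PA-1 (-0.17, adjusted p = 0.264) or in SK-OV-3 (-0.07, adjusted p = 0.595).

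Of 8 other arrestin-fold genes, 5 passed the filter in each line and ARRDC5 had no count in any library. None passed the edgeR test in PA-1 (2 had an unadjusted p under 0.05, and DESeq2 called 0). The beta-arrestins ARRB1 and ARRB2, which stop signalling of hormone receptors, had log2 fold changes of 0.11 and 0.02 there (edgeR adjusted p = 0.468 and 0.902). In SK-OV-3 they had -0.03 and 0.12 (edgeR adjusted p = 0.881 and 0.58). There DSCR3 and the retromer gene VPS26A rose by 0.32 and 0.18 (edgeR adjusted p = 0.0129 and 0.0404), calls lost in 3 of 13 and 8 of 14 alternatives. The median was 0.02 in PA-1 and 0.12 in SK-OV-3. The level of ARRB2 was 86 ± 3.11 CPM in PA-1 and 9.4 ± 0.264 in SK-OV-3 with DMSO (SD, n = 3), with no overlap of the libraries.

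The interaction test of line and compound called 19 of the 66 list genes tested, against 14.5% of all genes. The response was higher in SK-OV-3 for 8 of them and lower for 11. Earlier results were known when the lists were chosen, so nothing is read from this share. For SLC2A1 and HK2 the response in SK-OV-3 was lower by 1.24 and 1.21 on the log2 scale (-1.24 and -1.21, edgeR adjusted p = 8.30e-09 and 2.11e-07), and for SCD it was higher by 1.02 (edgeR adjusted p = 4.43e-07).

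**Figure D4:**
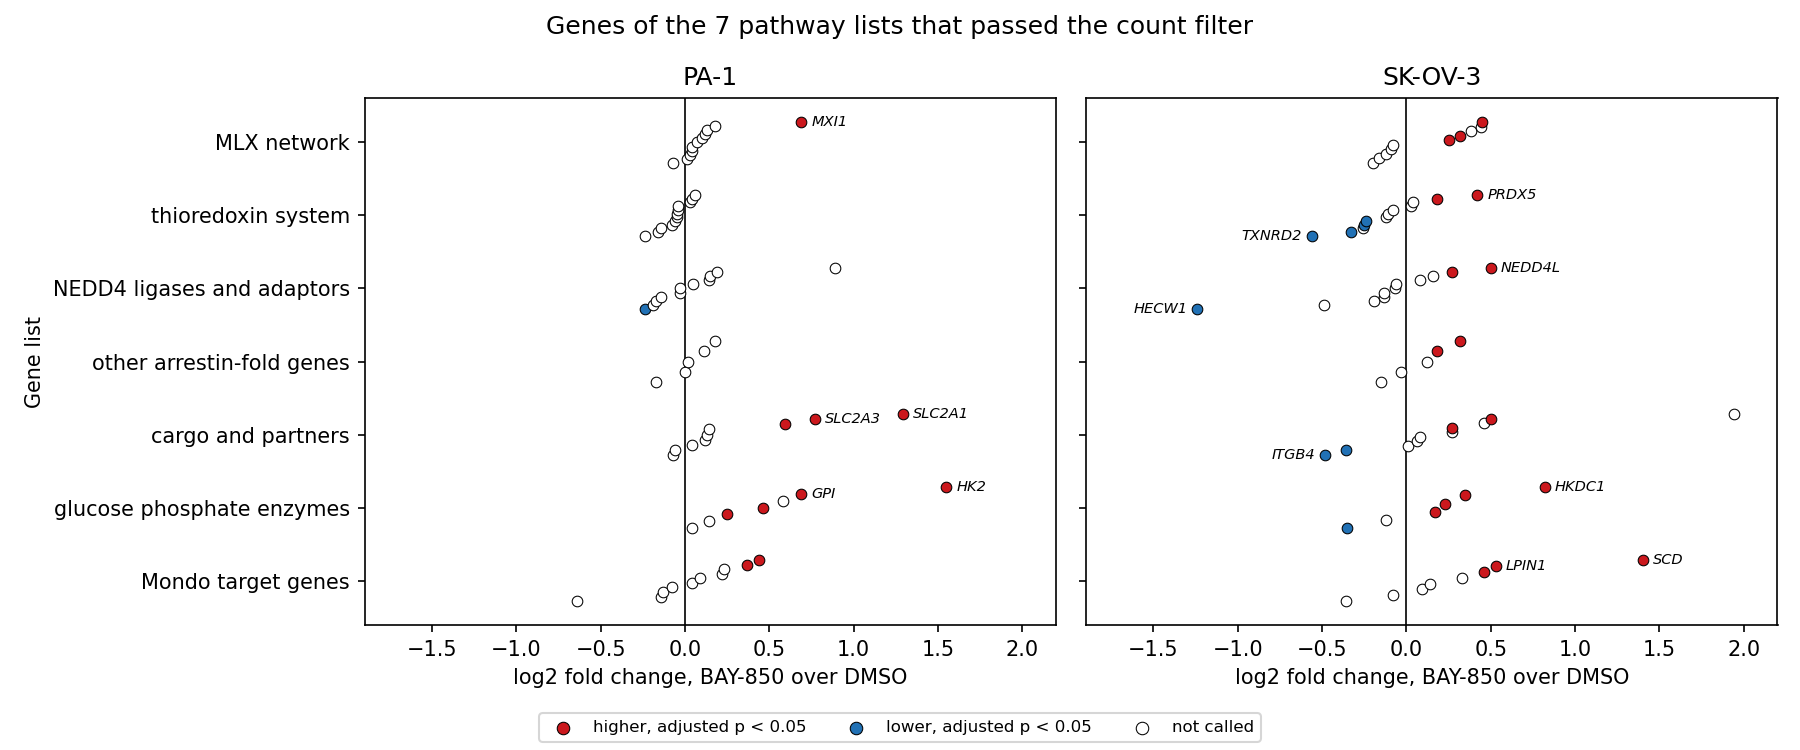
Log2 fold change after BAY-850 (horizontal axis) of the list genes that passed the count filter in PA-1 (left) and SK-OV-3 (right), 1 point a gene, by list. Filled points passed the edgeR test (adjusted p under 0.05); HK2 lies at 1.55 and SLC2A1 at 1.29 in PA-1, and SCD lies at 1.40 in SK-OV-3.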

How the data were processed

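RNA was measured in 12 libraries, 3 in each of 4 groups. The authors deposited RSEM expected counts per gene symbol. The submitters' processing notes name Bowtie2 2.1.0, RSEM 1.2.15 and hg38. The labels describe oligo-dT purification in one place and ribosomal RNA depletion in another. Counts were rounded to whole numbers, and 0 columns were left unused.

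Genes were filtered with filterByExpr and tested with edgeR 4.0.16 (R 4.3.3) by the quasi-likelihood test with TMM scaling, called at an adjusted p under 0.05. Log2 CPM values used a prior count of 2. Standard errors are the log2 fold change over the square root of F. DESeq2 1.42.0 was an alternative. Each line was fitted alone, and the interaction on all libraries. Scripts were tested on simulated data. Exon lengths came from GENCODE v29, which matched 23926 of 26475 symbols, and promoters from RefSeq (GRCh38.p14).

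The members and lists were chosen with earlier results of these data known. An edgeR test of the members between the lines was planned, but its p-values are not given, because baseline levels were known too. Genes were named by rule: the 7 members, up to 3 called genes with the highest absolute change per list and line, MLX, TXN, TXNRD1, ARRB1, ARRB2, NEDD4, ITCH, SLC2A1 and HK2, and the 3 genes most like TXNIP, ARRDC3 and ARRDC4 among those with a mean of at least 1 CPM. The rule named 2 further genes that are not reported here. SLC11A2 and ARRDC5 were named after their values were seen. The plan for the promoters named CACGTG and its spaced pairs, and the search for CCAAT was an addition to it. Alternatives changed the tool, scaling, filter, GC trend (loess span 0.5), samples in the fit or replicate block, or left out 1 library.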

Additional observations from a re-analysis of the deposited data

Results flagged for a closer look

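ARRDC3 was singled out because every treated PA-1 library lay above its controls and every treated SK-OV-3 library below. The response in SK-OV-3 minus that in PA-1 was -1.38 on the log2 scale, and this difference was not tested.

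For 17 named list genes the response differed between the lines by the interaction test (edgeR, adjusted over all genes). Values are the log2 response in SK-OV-3 minus that in PA-1. Among glucose genes they were -1.24 for SLC2A1, -1.21 for HK2, -0.48 for GPI, -0.30 for HK1 and 1.19 for SLC2A3, the last with 4 to 69 counts in SK-OV-3. Among Mondo targets they were 1.02 for SCD, 0.66 for LPIN1 and 0.41 for ELOVL6. For thioredoxin genes they were -0.61 for TXNRD2, -0.29 for PRDX1 and 0.24 for TXNRD1, the last at an adjusted p of 0.0494. For receptors and sorting genes they were -0.61 for ITGB4, -0.59 for NOTCH1, 0.44 for INSR, 0.33 for VPS26A and 0.29 for NEDD4L. MXI1 had -0.38. In PA-1, ITGB4 did not pass 2.08 CPM in any library. The test for single outlying libraries needs groups of at least 4 and was not run on these groups of 3.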

How the results depend on the processing

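The 13 log2 fold changes of members after BAY-850 stayed within 1 SD of their main value in all 78 fits that left out 1 library and in 101 of the other 104 values. The 3 exceptions came with the GC trend removed in PA-1, at -0.185 for ARRDC1, 1.12 for ARRDC2 and 1.2 for ARRDC3. Between the lines under DMSO, ARRDC3 moved to 0.639 with the GC trend removed, and TXNIP ran from 9.39 to 11.5 when 1 library was left out, the highest without the second PA-1 DMSO library. Genes called in PA-1 numbered 1085 in the main analysis, 1674 with DESeq2, 466 with library size only, 604 with the GC trend removed and 683 with all 12 libraries in one fit. Leaving out 1 library gave 340 to 1228 in PA-1, lowest without the second DMSO library (489 without the first, 344 without the second BAY-850 library), and 1781 to 3902 in SK-OV-3 (3130 in the main analysis), lowest without the second DMSO library, 1983 without the third DMSO library and highest without the third BAY-850 library. List genes called in SK-OV-3 numbered 26, and 17 to 29 with 1 library left out, lowest without the first BAY-850 library. The cause was not tested. Of the named list genes called, 9 of 10 in PA-1 and 14 of 21 in SK-OV-3 were called under all alternatives.

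Same-numbered replicates did not deviate together (correlations of -0.0839 to 0.117, and not every library correlated best with its own number). These values showed no pairing by number, but whether same-numbered samples were handled together was not given. With the replicate block, 931 genes were called in PA-1, 2716 in SK-OV-3, 12830 between the lines and 2086 in the interaction. TXNIP in PA-1, at 2 to 27 counts, is limited by depth. Members were not tested, and 3 libraries a group limit each standard error.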
